A study of Mus musculus with 23 samples.

Results

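The paternal and the maternal allele were compared within each of 6 M-Z+ mouse embryos, 3 female and 3 male, of 23 embryos in the series. M-Z+ embryos lack the Zfp57 protein of the oocyte and carry 1 working copy of the gene from the father. They came from Zfp57-/- mothers on the 129S6/SvEvTac background mated with Zfp57+/- fathers that had been crossed back to DBA/2J and were called DBA*, so each embryo was Zfp57-/+ and a 129/DBA hybrid. Whole embryos were taken at E13.5, and libraries titled mRNA-Seq were made from their total RNA. M+Z+ embryos, with Zfp57 in the egg, and M-Z- embryos, Zfp57-/- and without the oocyte protein, served for comparison, with fathers of the same strain. By their titles the M+Z+ embryos were Zfp57-/+ too, so that every group carries at least 1 deleted copy, but their allele columns are headed WT. Reads that cover a base that differs between the strains were assigned by the authors to the maternal (129) or the paternal (DBA) genome. Every mating ran in the same direction, so the strain of an allele and the parent that gave it cannot be told apart within an embryo.

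The genes described are those on autosomes whose allele reads averaged 20 or more over the 6 embryos, 6430 of 24863 autosomal genes and of 26183 genes in the tables. Allelic balance is given as the P-score, the paternal share of a gene's allele reads minus 0.5. A P-score of 0.5 means that every read was assigned to the paternal genome, -0.5 that every read was assigned to the maternal genome, and 0 that both were equal. Paternal and maternal reads are meant in this sense throughout. The assignment rests on strain, so a paternal chromosome with sequence of the mother's strain would give reads counted as maternal. The paper describes the fathers as mainly of the DBA background, and their deleted Zfp57 copy was made in the mother's strain. The M-Z+ embryos held 2463598 to 2795243 allele reads each, beside total gene counts of 15.2 to 18.5 M. Allele values were available here for 19 embryos, 6 of them M+Z+ (2 female, 4 male) and 7 M-Z-. Nothing in the labels ties the embryos to litters, so p-values measure the spread between these embryos, and counting intervals cover counting error only.

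Genomic imprinting leaves 1 allele of a gene silent according to the parent that gave it. At most imprinted domains an imprinting control region (ICR) carries DNA methylation from the egg or the sperm on 1 allele, and that methylation must outlast the wave of demethylation in the early embryo. ZFP57, a KRAB zinc finger protein, binds the methylated allele of many ICRs at a short motif, TGCCGC, and recruits TRIM28 and with it histone and DNA methyltransferases. Before the embryo makes its own ZFP57, the supply is the one stored in the oocyte, and this supply is missing from M-Z+ embryos. At Snrpn, Zdbf2, Impact, Nnat and Peg3 the maternal allele is normally the silent one, and at Meg3 and Rian the paternal allele.

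The sequences that follow open 4 of the genes described here and are shown so that the letters of the motif can be read at the start of genes that relaxed to different extents. Each runs from 250 bases before to 30 bases after the 5′ end of the gene as placed in the deposited tables (mm9), was read from the mm9 reference on the gene's strand, and has TGCCGC or its reverse complement GCGGCA in capitals.
Snurf, chr7:67150056-67150335, minus strand: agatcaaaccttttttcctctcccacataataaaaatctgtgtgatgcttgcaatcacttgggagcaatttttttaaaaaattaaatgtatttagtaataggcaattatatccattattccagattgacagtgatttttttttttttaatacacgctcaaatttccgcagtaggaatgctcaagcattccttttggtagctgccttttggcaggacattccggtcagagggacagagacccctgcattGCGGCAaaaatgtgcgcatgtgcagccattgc
Ndn, chr7:69492913-69493192, plus strand: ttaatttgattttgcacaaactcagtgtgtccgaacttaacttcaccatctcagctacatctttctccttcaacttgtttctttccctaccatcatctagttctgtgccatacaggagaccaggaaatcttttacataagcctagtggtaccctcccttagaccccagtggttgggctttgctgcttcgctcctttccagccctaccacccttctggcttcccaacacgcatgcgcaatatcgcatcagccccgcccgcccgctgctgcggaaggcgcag
Zdbf2, chr1:63246682-63246961, plus strand: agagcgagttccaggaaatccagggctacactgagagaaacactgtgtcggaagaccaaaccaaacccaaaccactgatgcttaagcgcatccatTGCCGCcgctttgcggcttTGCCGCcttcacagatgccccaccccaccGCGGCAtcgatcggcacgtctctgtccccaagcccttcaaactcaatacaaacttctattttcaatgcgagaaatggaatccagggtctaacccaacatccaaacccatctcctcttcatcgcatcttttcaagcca
Meg3, chr12:110778956-110779235, plus strand: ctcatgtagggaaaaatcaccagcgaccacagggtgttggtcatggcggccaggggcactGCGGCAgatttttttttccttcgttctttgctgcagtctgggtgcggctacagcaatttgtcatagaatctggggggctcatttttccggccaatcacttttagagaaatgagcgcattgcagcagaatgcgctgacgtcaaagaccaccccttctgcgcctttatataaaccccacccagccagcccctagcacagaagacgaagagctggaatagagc
The Snurf window, which is also where the deposited Snurf interval begins inside the longer Snrpn interval, held 1 match, whose first base is at position -2 where the 5′ end is 0. The Zdbf2 window held 3, at positions -155, -136 and -107, and the Meg3 window 1, at -190. The windows of Ndn, Magel2, Mkrn3, Peg12 and Usp29 held none. Of 24797 windows of autosomal genes, 2981 (12.0%) held the motif on either strand, and of the 45 windows of imprinted genes tested below, 9 did. A match is a description of letters in this window and not a binding site.

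Zfp57 itself had 0 allele reads in all 19 embryos, so its 2 copies could not be told apart. The total level of Zfp57 in M-Z+ embryos was 66.6 to 78.6 CPM (gene counts scaled to the library's total; mean 71.1 ± 4.65 SD, n = 6), within the range of M+Z+ embryos (52.7 to 99.1 CPM, n = 10) and above that of M-Z- embryos (25.5 to 35.3 CPM, n = 7). Of the markers of other tissues, 6 of 8 placental markers, among them Prl3b1 and Tpbpa, were at 0 in all 6 M-Z+ embryos (summed level 0 to 0.270 CPM). Of the 5 decidual markers, the prolactins Prl8a2 and Prl3c1 were also at 0. The other 3, Pgr, Cryab and Htra3, were detected in all 6 embryos (sum of the 5 decidual markers 31.1 to 42.6 CPM). Female M-Z+ 3 stood apart in composition, with the lowest summed liver markers (2532 CPM against 3727 to 5361 CPM in the others) and the lowest summed erythroid markers (9834 CPM against 13612 to 17435 CPM). It also had the lowest muscle sum (830 CPM against 977 to 1261 CPM) and the highest neuron sum (1418 CPM against 1258 to 1366 CPM). Its allele reads differed from those of the others by a chi-square of 7.15 to 15.9 per gene, where the other pairs of M-Z+ embryos differed by 1.97 to 7.95. Male M-Z+ 1 stood apart in a stretch of chromosome 17, described at the end. No 2 embryos agreed within sampling noise.

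The first question was how far each gene leaned to one allele. A gene was called biased where edgeR's quasi-likelihood test with the embryo as a block gave an adjusted p below 0.05 and the mean P-score was at least 0.1 in size. Of 6430 genes, 1131 were called (17.6%), 513 toward the paternal allele (7.98%) and 618 toward the maternal allele (9.61%). The median P-score over all tested genes was -0.0022, with quartiles of -0.03 and 0.03. Of the called genes, 204 lay at a mean of 0.4 or more and 284 at -0.4 or less, and the remaining 309 paternal and 334 maternal genes were partly biased, between 0.1 and 0.4 in size.

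Among 109 imprinted genes listed from the known domains, 106 were in the tables and 45 had enough allele reads. Several of the best known imprinted genes could not be read: H19, Igf2 and Rasgrf1 had a mean of 0 allele reads, and Peg3 itself a mean of 0.667, although its neighbours Usp29 and Zim1 were read. Of the 45 tested, 18 were called paternal and 8 maternal, against 7.98% and 9.61% of all tested genes, and 19 were not called.

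Genes of many domains were nearly as one-sided in M-Z+ as in M+Z+ embryos. Plagl1, a zinc finger transcription factor, had P-scores from 0.482 to 0.496 in the 6 embryos and 0.488 to 0.492 in M+Z+. Dlk1, a Notch-like ligand of growing tissues, ran from 0.415 to 0.426 (M+Z+ 0.405 to 0.430), and Slc38a4, an amino acid transporter, read 0.5 in every M-Z+ embryo. On the maternal side Igf2r, the receptor that clears IGF2, ran from -0.5 to -0.496, Kcnk9, a potassium channel, from -0.5 to -0.461, and Zim1, a zinc finger gene of the Peg3 domain, from -0.497 to -0.455. Some genes were partly biased to a like extent in M-Z+ and M+Z+ embryos. Inpp5f, an inositol phosphatase, ran from 0.236 to 0.307 in M-Z+ and from 0.270 to 0.312 in M+Z+, and Phactr2, beside Plagl1, from -0.235 to -0.191 and from -0.234 to -0.196. None of these genes was called for a shift between M-Z+ and M+Z+ embryos.

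The Snrpn domain on chromosome 7 was different. Its genes are silent on the maternal allele in M+Z+ embryos and encode a splicing factor (Snrpn, with Snurf upstream in the same transcript), a long host transcript of small nucleolar RNAs (Snhg14), a MAGE family regulator of neurons (Ndn, with Magel2, a ubiquitin ligase partner), a RING finger protein (Mkrn3) and Peg12, of the FRAT family that binds the kinase GSK3. Snrpn lies at chr7:67127381-67595063 on the minus strand, Ndn at chr7:69493163-69494813 and Peg12 at chr7:69606757-69609396. In the order female 1, 2, 3 and male 1, 2, 3, Snrpn had P-scores of -0.0369, 0.206, 0.239, 0.108, 0.0756 and 0.138. In read counts this was 609 paternal against 706 maternal reads in female 1 and 718 against 254 in female 3. Female 1 was thus slightly maternal, its counting interval (exact Clopper-Pearson, 95%) running from -0.0641 to -0.0095, while females 2 and 3 kept a paternal share of 70.6% and 73.9%. The M+Z+ embryos lay between 0.494 and 0.499, so that no M-Z+ embryo overlapped them, and the M-Z- embryos lay between -0.0488 and 0.0242, which took in female 1 only. In RNA of whole embryos, a partial bias within each cell and a mixture of cells with 1 and with 2 active alleles cannot be told apart, nor can fewer cells of a type and less RNA per cell.

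**Figure D1:**
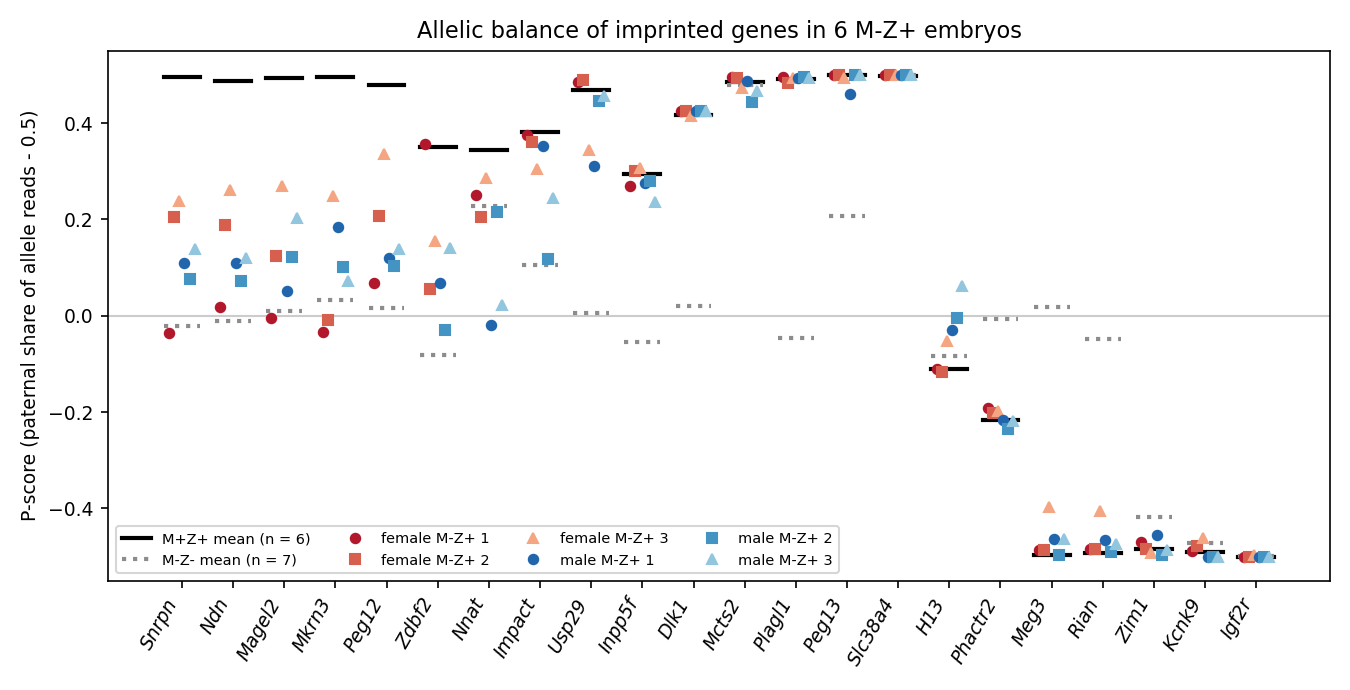
P-score of 22 imprinted genes in each M-Z+ embryo (points, red for females and blue for males), with the mean of 6 M+Z+ embryos (black bar) and of 7 M-Z- embryos (dotted grey bar). The points of Snrpn, Ndn, Magel2, Mkrn3 and Peg12 lie below the black bar and are widely spread, in part down to the grey bar, while those of Plagl1, Dlk1, Slc38a4 and Igf2r lie at the M+Z+ bar.

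Ndn followed with 0.0175, 0.188, 0.261, 0.109, 0.0711 and 0.119, and lay between the M+Z+ embryos (0.464 to 0.496) and the M-Z- embryos (-0.0274 to 0.0119) without touching either range. Peg12 read 0.0686, 0.207, 0.336, 0.120, 0.104 and 0.138, again clear of M+Z+ (0.444 to 0.5), with female 1 just above the upper end of M-Z- (-0.0551 to 0.0684). Magel2, at 113 to 180 reads an embryo, read -0.0056, 0.123, 0.270, 0.0519, 0.123 and 0.202. Mkrn3 read -0.0339, -0.0096, 0.247, 0.185, 0.102 and 0.0728, and here 4 of the 6 embryos, all but female 3 and male 1, were within the range of the M-Z- embryos (-0.0794 to 0.119). In all 5 genes female 3 was the most paternal of the M-Z+ embryos, and female 1 was the least paternal. Female 3 was also the embryo with the lowest liver, erythroid and muscle marker sums and the highest neuron sum, and their part in this order was not tested.

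**Figure D2:**
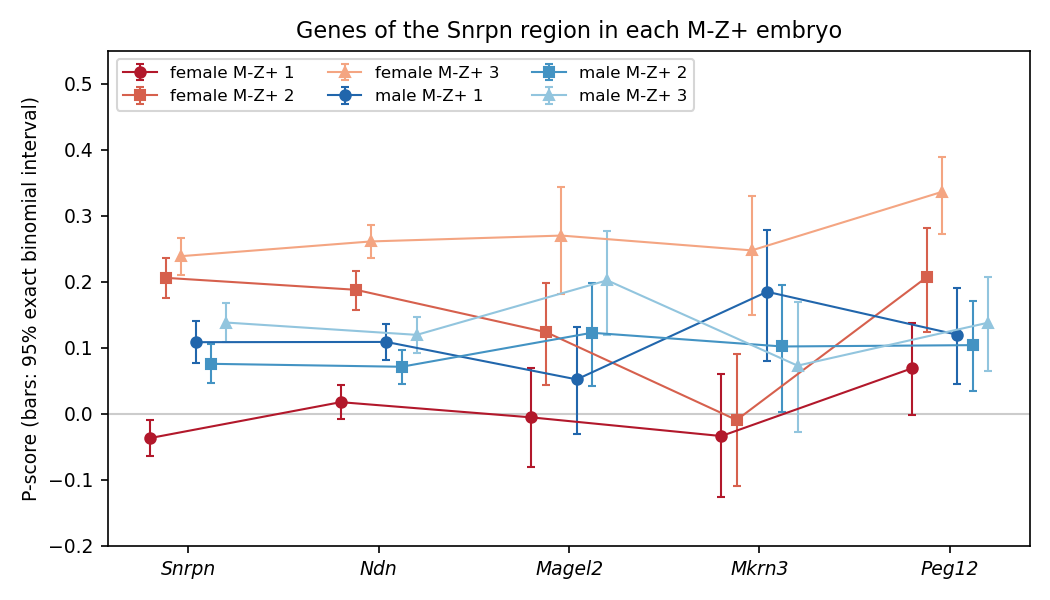
P-score of 5 genes of the Snrpn domain in each M-Z+ embryo (lines join the genes of 1 embryo and are no trend), with exact 95% binomial intervals of the counts. Female 1 is the lowest embryo in every gene, from -0.0369 at Snrpn to 0.0686 at Peg12, and female 3 the highest, from 0.239 to 0.336, and the embryos between them change order at Magel2 and Mkrn3.

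As means over the 6 embryos the bias of Snrpn was 0.12 ± 0.10 (SD, n = 6, adjusted p = 0.00215 in edgeR's test), that of Ndn 0.13 ± 0.09 (adjusted p = 0.000612), that of Magel2 0.13 ± 0.10 (adjusted p = 0.00565) and that of Peg12 0.16 ± 0.10 (adjusted p = 0.000793). Mkrn3, at 0.09 ± 0.11, was not called (adjusted p = 0.0603). Snord64 of the same domain, with a mean of 24.2 reads, was at 0.0014 ± 0.21 and was not called (adjusted p = 0.87). It ran from -0.230 to 0.367, with 4 embryos on the maternal side, and was at 0.5 in the M+Z+ embryos with enough reads. Without female 3 the means of Snrpn and Magel2 were just under the minimum, at 0.0982 and 0.0989. By an exact sign-flip test over the 6 embryos, two-sided with a smallest possible p of 0.0312, Ndn and Peg12 reached p = 0.0312 and Snrpn p = 0.0625, since female 1 was on the other side. Snrpn, Snurf and Snhg14 overlap in the deposited intervals, and a read may have been counted for more than 1 of them, so these 3 are not independent measurements.

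Set against M+Z+ embryos, 14 of 6456 genes (0.217%), those with the same mean of reads over the 19 embryos, were called for a shift, that is an allele-by-genotype term in 1 fit of the 19 embryos with adjusted p below 0.05 and mean P-scores at least 0.1 apart. At an unadjusted p below 0.05 there were 379. Of the 14, 13 were lower in M-Z+ (0.201%), 1 was higher (0.0155%) and 10 lay in the Snrpn domain. The shift was -0.38 for Snrpn (adjusted p = 4.37e-15), -0.36 for Ndn (adjusted p = 4.59e-13), -0.37 for Magel2 (adjusted p = 8.72e-10), -0.40 for Mkrn3 (adjusted p = 1.13e-09) and -0.31 for Peg12 (adjusted p = 7.02e-09). For each of these 5 the exact permutation test of the genotypes within sex (350 relabelings, two-sided) gave its smallest possible p of 0.00286.

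The 2 largest shifts among the called genes, those of A230057D06Rik and A330076H08Rik, belonged to less well known transcripts between Snrpn and Ndn. Snord64 of the same domain, not tested in the fit of 19 embryos, differed by -0.57. Its exact permutation p was 0.1, where 20 relabelings allow a smallest p of 0.05. A230057D06Rik, at chr7:68850736-69072460, was paternal in the M+Z+ embryos with enough reads for a P-score, which were not all of them (0.35 to 0.5). It was maternal in all 6 M-Z+ embryos, at -0.301, -0.207, -0.0867, -0.142, -0.318 and -0.149. Its shift was -0.62 (adjusted p = 6.41e-08). A330076H08Rik, at chr7:69088781-69127241, lay between -0.151 and 0.133 and shifted by -0.54 (adjusted p = 4.21e-09), with female 3 alone on the paternal side. A230006K03Rik, with a mean of 26.9 reads over the 19 embryos, lay between -0.0200 and 0.284 and shifted by -0.37 (adjusted p = 8.41e-05), while all its reads in M+Z+ embryos were paternal. In the order named, mean total levels were 1.36, 2.66 and 1.69 CPM in M+Z+ embryos against 7.24, 8.17 and 3.02 CPM in M-Z+ embryos. The read minimum was a mean over the 19 embryos and did not have to be met in M+Z+ embryos alone. Ube3a, the ubiquitin ligase of the same domain (-0.0541 to 0.0108), and Atp10a (-0.143 to 0.0385) were called for neither bias nor shift, although the exact permutation p of the shift of Atp10a, -0.10, was 0.00571.

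Zdbf2, a zinc finger gene at chr1:63246932-63361149 that is expressed from the paternal allele, was the other imprinted gene called for a shift, at -0.23 (adjusted p = 0.0233). Its P-scores were 0.357, 0.0556, 0.156, 0.0672, -0.0294 and 0.141, on 64 to 90 reads an embryo. Female 1, which had the lowest Snrpn, had the highest Zdbf2, inside the M+Z+ range (0.208 to 0.432), and the other 5 embryos were below that range. The permutation test gave p = 0.00857 for Zdbf2 over the exact relabelings within sex. This call rested on the full set of embryos: it was lost when any 1 of 9 embryos was left out (adjusted p = 0.0517 to 0.0962) and in each sex alone.

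Impact, an inhibitor of the stress kinase GCN2, was strongly paternal in most embryos and much less so in male 2. Its P-scores were 0.375, 0.360, 0.304, 0.352, 0.117 and 0.244. Each was below every M+Z+ embryo (0.376 to 0.389), although the counting intervals of females 1 and 2 and male 1 reached into that range, and the permutation test gave its smallest possible p, 0.00286. The shift, -0.09, was under the minimum of 0.1 and its adjusted p was 0.1, so Impact was not called. Male 2 had 237 maternal of 619 reads and lay inside the M-Z- range (0.0581 to 0.186), and in the fit over all genes M-Z- embryos were lower, with a difference from M-Z+ embryos of -0.19 (adjusted p = 4.57e-05). Nnat, a small membrane protein of developing neurons, had only 17 to 28 reads an embryo and P-scores of 0.25, 0.206, 0.286, -0.0185, 0.214 and 0.0217 (M+Z+ 0.214 to 0.5). Its intervals were wide, from -0.213 to 0.181 in male 1, and its shift was not called (adjusted p = 0.495; exact permutation p = 0.00571).

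Smaller departures were seen in 2 further domains. Usp29, a deubiquitinase gene beside Peg3, had P-scores of 0.485, 0.488, 0.345, 0.311, 0.446 and 0.457. Females 1 and 2 and male 3 were inside the M+Z+ range (0.455 to 0.489), male 2 lay just below it, and female 3 and male 1 were well below it, and the shift was not called (adjusted p = 0.665). The long noncoding RNAs Meg3 and Rian of the Dlk1-Dio3 domain, expressed from the maternal allele, stayed near -0.5 in most embryos and gained paternal reads in some. Meg3 was at -0.487, -0.487, -0.397, -0.463, -0.496 and -0.464 (M+Z+ -0.499 to -0.495), and Rian at -0.485, -0.485, -0.406, -0.465, -0.490 and -0.474 (M+Z+ -0.496 to -0.485). In both, female 3 had the most paternal reads. Their allele-by-genotype terms had adjusted p = 0.00149 and 0.0310, but the P-scores moved by less than 0.1, so neither was called; the exact permutation p was 0.0629 for Meg3 and 0.1 for Rian. H13, a signal peptide peptidase gene with a weak maternal lean, ran from -0.116 to 0.0617 and was called neither for bias (adjusted p = 0.125) nor for a shift.

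The genes called for a shift outside the Snrpn domain were 4. Besides Zdbf2 they were Naa80, an actin acetyltransferase, with a shift of -0.16 (adjusted p = 0.0345), Srrm2, a splicing scaffold, with -0.10 (adjusted p = 0.0223), and Lars2, the mitochondrial leucine tRNA synthetase and the only gene called higher, with 0.11 (adjusted p = 0.00054). The ranges of Srrm2 (0.255 to 0.330 in M-Z+, 0.304 to 0.452 in M+Z+) and Lars2 (-0.179 to -0.130 and -0.298 to -0.143) overlapped. Those of Naa80 (-0.113 to 0.0128 and 0.0634 to 0.204) did not. With single embryos left out, the shift count ran from 11 to 19, against 14 in all, so some calls were lost in some of these fits. Whether the calls of Naa80, Srrm2 and Lars2 held in each of them is not given here.

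The shift was then taken apart by allele, as CPM of each allele out of all allele-assigned reads of the embryo. For Snrpn the paternal allele gave 220, 229, 257, 230, 258 and 244 CPM in the 6 embryos, and the maternal allele 255, 95.4, 90.9, 148, 190 and 139. In M+Z+ embryos the paternal allele gave 231 to 252 and the maternal allele 0.342 to 1.48. The paternal level was not called (log2 change 0.01 ± 0.07 SE, adjusted p = 1), in a test that, with no minimum change, recovered in simulated data 0% of genes whose paternal share rose to 0.6 and 6% of those at 0.75, and the maternal level was raised in every embryo, least in female 3 and most in female 1. Ndn showed the same, with 239 to 324 paternal and 264, 108, 98.7, 203, 244 and 178 maternal CPM.

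Over all genes, maternal output was called higher in 43 of 6456 (0.666%) and lower in 6 (0.0929%), at an adjusted p below 0.05 and a log2 change of at least 0.5. The 10 genes of the Snrpn domain were among the 43, with log2 changes of 5.62 ± 0.30 (SE) for Ndn and 4.6 ± 0.38 for Peg12. Both were set against low maternal levels in M+Z+, 4 to 31 reads an embryo for Ndn and 0 to 8 for Peg12, near the floor of counting. Zdbf2 rose by 1.69 ± 0.31 (adjusted p = 0.00261), from 1.03 to 6.89 in M+Z+ to 4.33 to 14.6 CPM. Impact rose by 1.05 (adjusted p = 0.0215), and its call was lost when any 1 of 5 embryos was left out. Paternal output was called higher in 12 genes (0.186%) and lower in 4 (0.0620%), and the 12 included both Meg3 and Rian. Meg3 paternal reads were 20.9, 24.5, 180, 79.8, 7.31 and 62.7 CPM against 1.01 to 8.34 in M+Z+ embryos, a log2 change of 4.15 (adjusted p = 0.00167). Rian paternal reads were 18.0, 20.9, 123, 49.4, 12.6 and 29.5 CPM against 5.17 to 18.6 (log2 change 2.12, adjusted p = 0.0263). All but male 2 were above the M+Z+ range of Meg3. The call of Rian was lost when any 1 of 4 M+Z+ embryos was left out (adjusted p = 0.0638 to 0.0884). The counts depended on single embryos: with 1 left out, 30 to 103 genes were called for maternal output and 3 to 56 for paternal output, against 49 and 16 in all, and the highest counts were those without male M+Z+ 4.

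**Figure D3:**
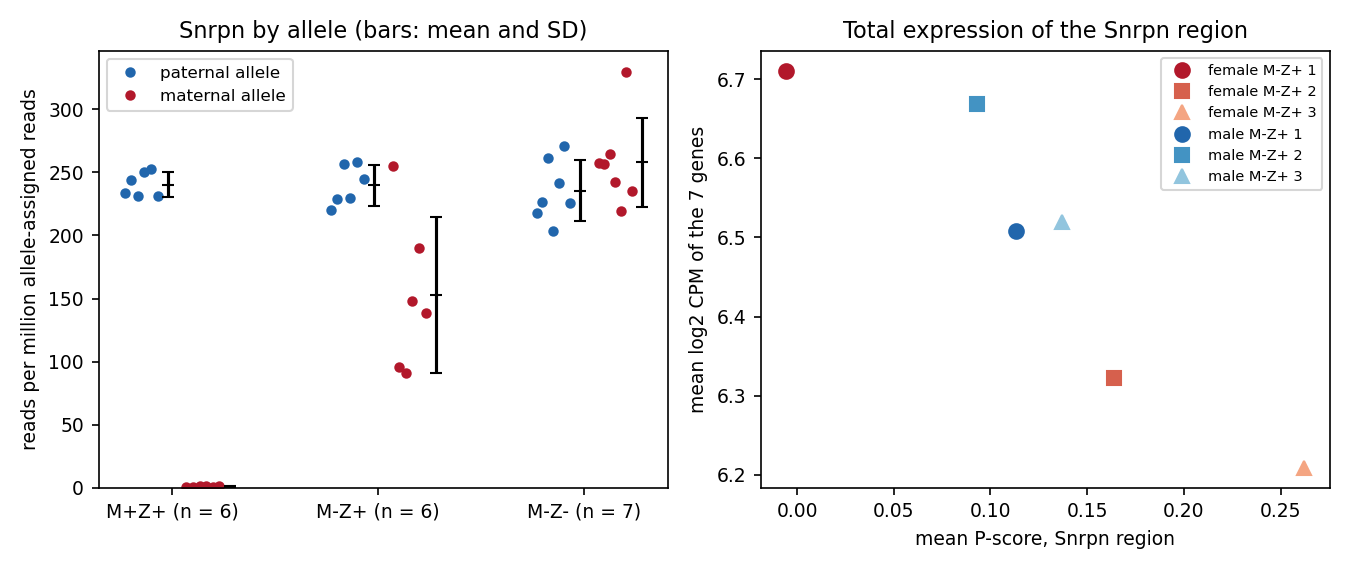
Left, Snrpn CPM of each allele in every embryo, with mean and SD beside each set. Right, mean log2 CPM of 7 genes of the Snrpn domain against their mean P-score in the 6 M-Z+ embryos, where the most biallelic embryo, female 1, has the highest expression and female 3 the lowest.

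Total expression of the Snrpn domain was compared with its allelic balance. Over 7 genes of the Snrpn domain, the mean log2 CPM fell as the mean P-score rose across the 6 M-Z+ embryos (Pearson r = -0.930, exact p = 0.00278; Spearman rho = -0.943, exact p = 0.0167). Over the 2 regions tested this way the adjusted values were 0.00556 and 0.0333, and over the 5 domains compared below 0.0139 and 0.0833. Without females 1 and 3, the 2 embryos farthest from the median, r was -0.938, and leaving out 1 embryo at a time it lay between -0.963 and -0.855. The allele reads are a part of the same libraries' reads, so these measures share their source, and 3 embryos of each sex are too few to give r within a sex. In level, Snrpn was at 120 to 174 CPM in M-Z+ embryos, above M+Z+ embryos (87.8 to 101 CPM, n = 10) and partly below M-Z- embryos (165 to 206 CPM, n = 7). For Zdbf2 the same relation was not found (r = 0.379, exact p = 0.449; rho = 0.543, exact p = 0.297).

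Compared with M-Z- embryos, which also lack Zfp57 after fertilization, 108 of 6456 genes were called for a shift (1.67%), 102 of them lower in M-Z- (1.58%). Most of these are not imprinted genes: 84 of the 108, all lower in M-Z-, lay together at chr17:33661030-37211250, from Adamts10 to Gabbr1, a span that holds Zfp57 itself (chr17:37138108-37147674). Over the 81 of them with enough reads in M-Z+ embryos, the median P-score was -0.5 in each M-Z- embryo, 0 to 0.0173 in the M-Z+ embryos and -0.0035 to 0.0131 in the M+Z+ embryos. Since reads were assigned by strain, a P-score of -0.5 here need not mean a silent paternal allele. Which parent gave these reads was not tested. On the imprinted list 18 genes were called, 14 of them lower. The other 6 were A330076H08Rik of the Snrpn domain (-0.17, adjusted p = 0.0175), Mir770 inside the Meg3 interval (0.49), Gm30189 inside the Gnas interval (-0.37), Gm38671 (-0.24), Rexo2 (-0.23) and Utrn (0.12). The M-Z+ embryos are the same as in the comparison with M+Z+, so these comparisons are not independent. Genes that were far more one-sided in M-Z+ than in M-Z- embryos were among the 108: Plagl1 lay between -0.0709 and -0.0420 in M-Z-, Dlk1 between -0.0393 and 0.0549, Meg3 between 0.00776 and 0.0359, Inpp5f between -0.0660 and -0.0401 and Usp29 between -0.0582 and 0.0761, none of which overlapped M-Z+. Snrpn, Snurf, Snhg14, Ndn, Peg12 and Zdbf2 were also called, with differences of -0.14 (Snrpn, adjusted p = 0.00246), -0.14 (Ndn, adjusted p = 0.0187), -0.15 (Peg12, adjusted p = 0.0268) and -0.21 (Zdbf2, adjusted p = 0.0115). Under DESeq2 the calls of Snrpn, Ndn and Peg12 were lost (adjusted p = 0.0590, 0.601 and 0.282). Magel2 and Mkrn3 were not called against M-Z-. Igf2r, Slc38a4, Kcnk9 and Mcts2 were beyond 0.4 in size in every embryo of the 3 genotypes, with ranges in M-Z- that overlapped those of M-Z+. Zim1 stayed maternal but was less so in M-Z- (-0.439 to -0.38), with no overlap with M-Z+, and was not called.

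No gene was called for a difference in bias between female and male M-Z+ embryos by edgeR, and 0 by DESeq2; 287 of 6430 had an unadjusted p below 0.05 in edgeR. Without male M-Z+ 1 edgeR called 1. The sex-by-genotype term in edgeR likewise gave 0 calls and 279 genes at an unadjusted p below 0.05. Of the imprinted genes on the list, 7 differed by at least 0.1 between the means of males and females: Wt1 (-0.21 in males minus females), Nnat (-0.17), Zdbf2 (-0.13), Impact (-0.11) and Gab1 (-0.11) were lower in males, and Chrac1 (0.13) and H13 (0.10) higher, all with adjusted p of at least 0.98. The difference was -0.03 for Snrpn. The share of all tested genes that differ by 0.1 or more is not given, so the 7 cannot be set against a background. On the list the sex-by-genotype term had an unadjusted p below 0.05 for Ndn (0.00473), H13 (0.00693), Hymai (0.0154), Peg12 (0.0172) and Impact (0.0247), each with an adjusted p of 1. With 3 embryos of each sex the test is coarse: in simulated data, with no minimum difference, it recovered 6% of genes whose paternal share was 0.6 in one sex only, and 81% where it was 0.75.

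The next question was whether embryos of one genotype differed among themselves by more than counting allows. For each gene the SD of the P-score over the 6 embryos was divided by the SD that binomial counting alone would give. The median of this spread ratio over 6430 genes was 1.20, and 77 genes (1.20%) had a ratio of at least 3. Without male M-Z+ 1 there were 33. Of the 45 imprinted genes 10 were at or above 3, and of the 7 Snrpn-domain genes on the list that were called for a shift, 4. The median SD of those 7 genes was 0.0985 in M-Z+ and 0.0065 in M+Z+. The imprinted genes with the highest ratios were Meg3 (14.2), Rian (10.6), Snhg14 (7.49), Snrpn (6.65) and Snurf (6.52). At one end of the scale the P-score has little room to vary, and the SD was 0.0049 for Plagl1, 0.0040 for Dlk1 and 0.0015 for Igf2r. By the ratio, Plagl1 (4.22) and Peg13 (3.56) were also above 3, while Dlk1 was at 0.647 and Igf2r at 1.00.

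Whether the relaxed domains vary together was tested first for the 2 domains with an imprinted gene called for a shift. The mean P-score of the Snrpn domain was -0.0055, 0.164, 0.262, 0.113, 0.0929 and 0.137 in the 6 embryos, and that of Zdbf2 is given above. Pearson's r between them was -0.396 (exact p = 0.425 over 720 orders; Spearman rho = -0.029, exact p = 1). The sign rested on single embryos: r was 0.560 without females 1 and 3, 0.718 without female 1 and -0.737 without female 3. An increase or a decrease of one with the other was not shown by these 6 embryos.

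With Impact, Usp29 (for Peg3) and Meg3 with Rian (for Dlk1-Dio3) added, each turned toward its expressed allele, 10 pairs of 5 domains could be compared, a choice made after seeing the data. None passed. The lowest p were those of Dlk1-Dio3 with Peg3 (r = 0.669, exact p = 0.0944, adjusted p = 0.556; rho = 0.543, exact p = 0.297) and of Dlk1-Dio3 with Snrpn (r = -0.775, exact p = 0.111, adjusted p = 0.556; rho = -0.714, exact p = 0.136). Without female 3 and male 2 these were 0.825 and -0.330. The order of the embryos differed from domain to domain. Female 1 was the most relaxed at Snrpn and the most paternal at Zdbf2 and Impact. Female 3 had the highest P-score at the Snrpn domain and the lowest values at Meg3 and Rian. Male 2 was lowest at Impact and Zdbf2 and the highest at Dlk1-Dio3, and male 1 was lowest at Usp29.

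**Figure D4:**
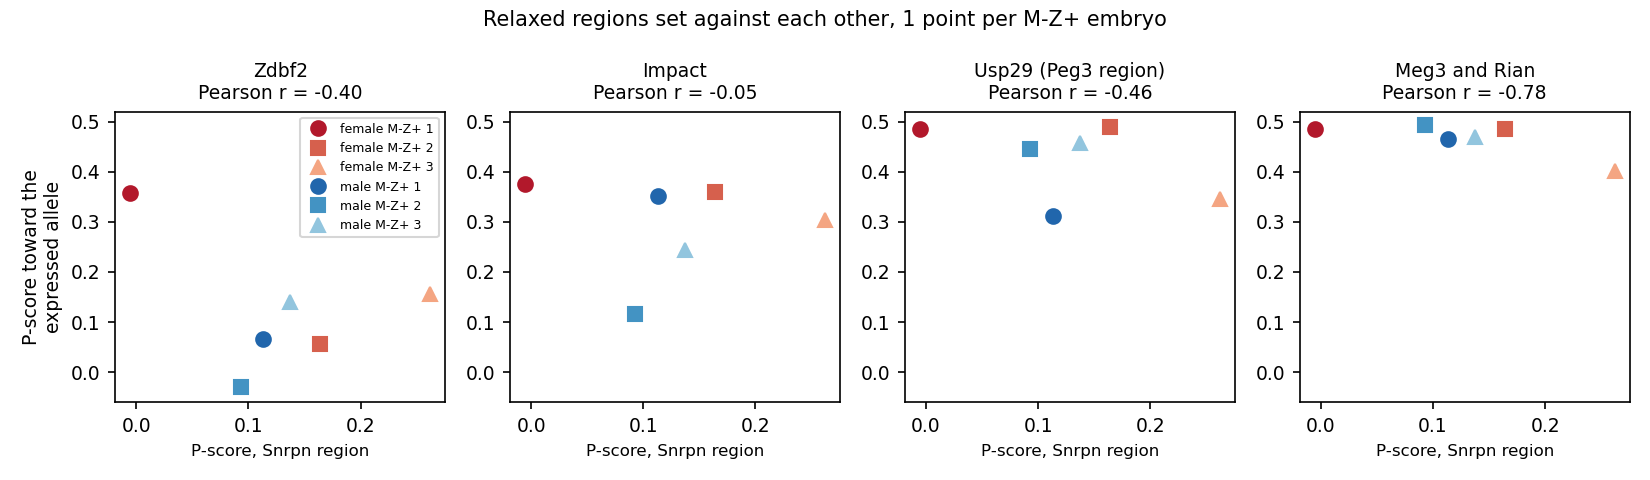
P-score toward the normally expressed allele of Zdbf2, Impact, Usp29 and the mean of Meg3 and Rian (vertical axis) against the mean P-score of the Snrpn domain (horizontal axis), 1 point per M-Z+ embryo. The points form no common line: r is -0.396, -0.052, -0.462 and -0.775, each with an adjusted p of at least 0.556.

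Within the Snrpn domain the embryos did vary together, at least in part. Over 10 pairs of 5 genes with separate intervals, Snrpn and Ndn gave r = 0.963 (exact p = 0.00417, adjusted p = 0.0208), and Ndn and Peg12 r = 0.971 (exact p = 0.00139, adjusted p = 0.0139). Snrpn and Peg12 gave r = 0.878 (exact p = 0.0208, adjusted p = 0.0694), and these 3 genes put the 6 embryos in the same order (rho = 1, exact p = 0.00278, adjusted p = 0.00926 for each pair). Without females 1 and 3 their r values were 0.983 to 0.992. The pairs with Magel2 had r of 0.806 to 0.815 (exact p = 0.0417 to 0.0514, adjusted p = 0.0856; rho = 0.886, exact p = 0.0333, adjusted p = 0.0556). They rested on females 1 and 3, without which r was 0.0884 to 0.217. The pairs with Mkrn3 had r of 0.514 to 0.572 (exact p = 0.240 to 0.310; rho = 0.486, exact p = 0.356) and turned negative without those 2 embryos, to -0.821 to -0.550. Mkrn3 and Magel2 have the fewest reads of the 5, 92 to 118 and 113 to 180 an embryo.

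Outside the imprinted list 630 genes were partly biased, 298 paternal and 332 maternal, and in 572 all 6 embryos lay on the same side. In M+Z+ embryos 621 of the 630 leaned the same way and 499 by at least 0.1. The median difference between M-Z+ and M+Z+ was 0.0235 in size, near that of all tested genes (0.0176), and 4 of the 630 were called for a shift, namely A230057D06Rik, A230006K03Rik, Srrm2 and Lars2. Over the 630 genes the median SD between embryos was 0.0531, the median spread ratio was 1.26, and 13 had a ratio of at least 3.

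Outside the list 475 genes were near-single-allele, at 0.4 or more in size, and 456 of these were so in the same direction in M+Z+ and M-Z- embryos as well. In 65 genes every read of the 6 embryos was paternal and in 137 every read was maternal. Ordered by read number among these ties, the paternal ones began with Eif4a2, a translation initiation helicase (2740 reads an embryo), Adh5, Hspd1, Glyr1 and Rest, and the maternal ones with Rpl15, a ribosomal protein (1944 reads), Mtch1, Bzw1, Pgam1 and Arpc5. Whether strain or parent sets the side of these reads cannot be told apart here. The part of base calling and read mapping in these 1-sided counts was not tested. Of the listed factors of imprint maintenance and DNA methylation, 6 had enough reads, and none was called for bias. Dnmt1, the maintenance methyltransferase, had a mean of 0.00 ± 0.02 (SD, n = 6). Zfp445, Setdb1, Dnmt3a, Dnmt3b and Tet2 lay between -0.05 and 0.02.

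Single embryos also differed in runs of neighbouring genes. A gene was counted as apart in an embryo where its P-score was at least 0.35 from the median of the other 5. That distance also had to exceed a set multiple of the range of those 5, so genes with a wide spread among the others were not counted. Of 6386 genes with a value in every embryo, 46 were apart in male M-Z+ 1 and 0 to 4 in each of the others. In male 1, 39 of the 46 lay together at chr17:44215751-48608009, from Enpp5 to Unc5cl, all on the maternal side. Of 48 tested genes in this run, 44 were at -0.4 or less in male 1, with a median of -0.5. The medians of the other 5 M-Z+ embryos were within 0.02 of 0. The same run had a median of -0.5 in all 3 male M-Z- embryos, and near 0 in the 4 female M-Z- and the 6 M+Z+ embryos. With reads assigned by strain, these values need not mean a silent paternal allele. Whether the paternal chromosome carries sequence of the mother's strain in this run was not tested. The run holds Vegfa, the endothelial growth factor, Runx2, the regulator of bone formation, Srf, Cul7 and Ptk7.

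**Figure D5:**
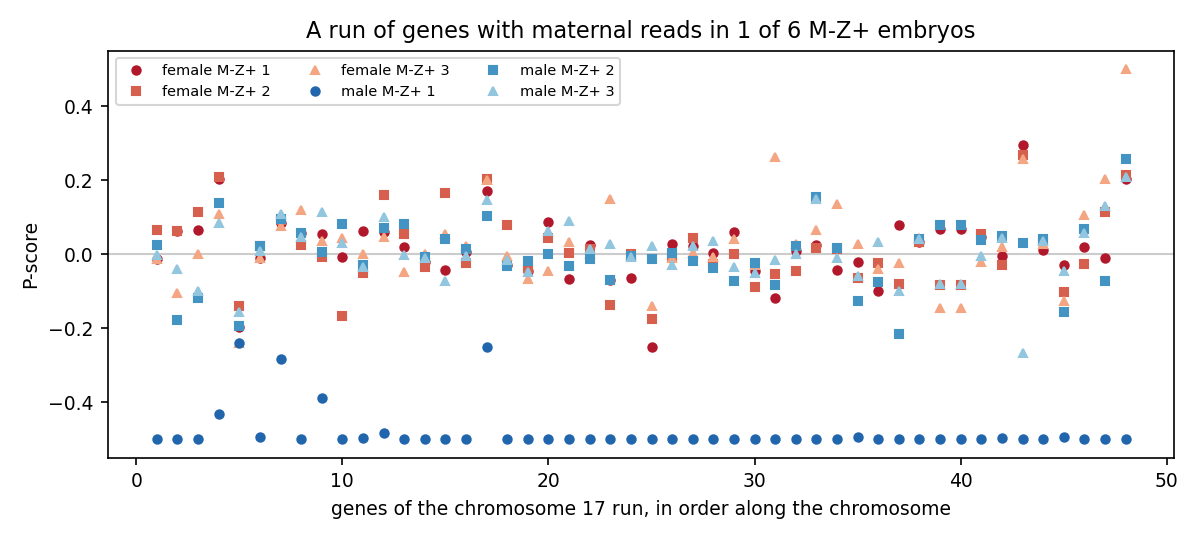
P-score of the 48 tested genes of the run on chromosome 17, in order along the chromosome, in each M-Z+ embryo. In male M-Z+ 1, 44 of the 48 points lie at -0.4 or less, while most points of the other 5 embryos scatter around 0.

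Of the 77 genes with a spread ratio of at least 3, 41 lay in this run. Hsp90ab1, a heat shock chaperone and the gene with the highest ratio of all (48.1), read -0.282 in male 1 and 0.0756 to 0.110 in the others. Ptk7, a receptor-like kinase of planar polarity, had a ratio of 19. Another run lies at the end of chromosome 6. From Far2, at chr6:147995938, to Rps4l, 4 genes were paternal in 5 embryos (0.453 to 0.5) and between -0.0058 and 0.0645 in male 1. From Ipo8 to Bicd1 female 3 read near 0 as well in most genes, with Ipo8 at 0.0214 in female 3 and -0.0163 in male 1 against 0.496 to 0.5 in the others. Ergic2, Ipo8 and Dennd5b of this run had spread ratios of 26.5, 24.3 and 17. M+Z+ embryos spread by a like amount: the SD of Ergic2 was 0.206 in M-Z+ and 0.256 in M+Z+ embryos, that of Ipo8 0.26 and 0.25, and that of Dennd5b 0.225 and 0.204. No imprinted gene on the list lies in either run, and none of the 14 genes called for a shift does. At the Snrpn domain male 1 was not extreme, with 2 embryos below it and 3 above.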

How the data were processed

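RNA of whole E13.5 embryos was sequenced by the authors, 1 library an embryo. Per the labels and the study's methods, reads were mapped to mm9 with STAR (2.7.8a for the total counts, unique alignments only), strain differences were masked in the genome for the allelic mapping, SNPsplit assigned reads to 129 or DBA, and featureCounts (Subread 2.0.1) counted them. The files deposited are raw counts per gene: maternal and paternal counts in 2 allelic tables, 1 per sex, and total counts. Total counting used a strand setting, while the library kit named in the labels does not mark strand, so total counts of genes that overlap on opposite strands, such as Snhg14 and Ube3a, may be split or mixed. Strand use in the allelic counting is not given in the sources used here. Because the strain-specific bases were called in the hybrid embryos and only reads over them count, a gene's allele reads are only a part of its reads, and overlapping genes can share them. Of the female allelic columns, 8 (of 4 M+Z+ embryos) carry the same names and cannot be assigned to an embryo, so they were not used; the fits planned on 23 embryos hold 19.

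Counts were tested in R 4.3.3 with edgeR 4.0.16 (quasi-likelihood), with both alleles of an embryo given the same library size, the embryo as a block, Benjamini-Hochberg adjustment over all genes tested and a mean of at least 20 allele reads. A P-score needed over 10 allele reads in that embryo. Shifts were allele-by-genotype terms over the 19 embryos, with the size taken as the mean of the within-sex differences. Allele output used allele-assigned reads as library size. Single values were tested exactly, by sign flips, by relabelling within sex or over all orders of the embryos. DESeq2 1.42.0, other filters, scalings, thresholds, each sex alone and single embryos left out were alternatives. Tests were checked on simulated data. At 6456 genes the bias test with its minimum P-score of 0.1 recovered 41% of genes simulated at a paternal share of 0.6, which lies at that minimum, and 100% at 0.75, and the shift test 26% and 97%.

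The genes named were Zfp57, imprinted genes past the read minimum, the maintenance factors as a group, and, outside the list, the 5 most paternal and 5 most maternal called genes (ties ordered by reads), the 10 called genes with the largest shift, and the 5 with the largest spread ratio at 100 reads or more; A230057D06Rik and A330076H08Rik were named in advance. Genes of the 2 runs and the remaining called genes were named after their values were seen. The members and the lists were chosen with earlier results of these data known. Sequences came from the mm9 reference.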

Additional observations from a re-analysis of the deposited data

Results flagged for a closer look

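In 9 of 50 genes tested, 1 M-Z+ embryo lay farther from the other 5 than Dixon's 95% limit allows, and chance alone flags about 1 group in 20. Female M-Z+ 3 accounted for 6 of the 9. It was the highest for Meg3 (-0.397, next -0.463), Rian (-0.406, next -0.465), Igf2r (-0.496, all others at the bound of -0.5, where any paternal read in 1 embryo alone would stand apart) and A330076H08Rik (0.133, next -0.0513), and the lowest for Dlk1 (0.415, next 0.424) and Chrac1 (-0.105, next 0.0965). The same embryo had the lowest liver, erythroid and muscle marker sums, 2532, 9834 and 830 CPM, and the highest neuron sum, 1418 CPM, and the part of these in the result was not tested. Female M-Z+ 2 was the lowest for Plagl1 (0.482, next 0.493) and for Begain (0.125, next 0.233), and male M-Z+ 1 for Peg13 (0.461, next 0.493). Dlk1 and Begain spread by less than binomial counting alone gives (spread ratios 0.647 and 0.838). Chrac1 rested on a mean of 49 reads an embryo.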

How the results depend on the processing

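The count of biased genes, 1131, was 555 with at least 100 allele reads, where fewer genes are tested, 1899 with no minimum P-score and 751 with a minimum of 0.2. The count of shifts from M+Z+, 14, was 25 with no minimum difference, and the count for paternal output, 16, was 28 with DESeq2. With 1 embryo left out at a time, the bias count ran from 1095 to 1138, the shift count from 11 to 19, that against M-Z- from 103 to 109, maternal output from 30 to 103, paternal output from 3 to 56, the sex difference from 0 to 1 and the count of spread ratios of at least 3 from 33 to 82. The highest output counts came without male M+Z+ 4 and the lowest without male M+Z+ 1, 2 or 3, and the cause was not tested. The correlation of Snrpn with Zdbf2 ran from -0.737 to 0.718 and was 0.560 without females 1 and 3, that of Snrpn-domain expression with P-score from -0.963 to -0.855, and that of Zdbf2 expression from 0.0521 to 0.774.

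Same-numbered male M+Z+ and M-Z+ embryos had correlations of deviations of -0.278, -0.029 and -0.232 in log2 CPM and of 0.067, 0.057 and -0.007 in P-score. In females numbers 1 and 2 gave -0.084 and 0.371 in log2 CPM. So few values cannot decide whether the numbers pair the embryos, and the main fits did not use them as pairs. With the replicate block the shift count in males with the same numbers was 15, against 16 without the block, and without the embryo as a block the bias count was 1113.

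The bias of Nnat and Ano1 and the shift of Zdbf2 lost their calls under several settings, and all calls of the 7 Snrpn-domain list genes for a shift from M+Z+ held in every setting run. Depth limits single embryos: at 64 to 90 reads, the interval of Zdbf2 in male 2 ran from -0.152 to 0.0955.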
